A study of Mus musculus with 3 samples.

Results

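Binding of HIF1α in and around 7 genes of the first steps of glucose use was examined in embryonic mouse heart. The genes were the glucose transporter genes Slc2a1, Slc2a3 and Slc2a4, the hexokinase genes Hk1, Hk2 and Hk3, and the glucose phosphate isomerase gene Gpi1, which are 7 of the 21775 nuclear protein-coding genes used for comparison. They were chosen by name, with earlier results of these data known. For each, every peak whose centre lay inside the gene or within 50 kb of either end was taken, which gave 18 of the 17289 peaks in the authors' merged list. The list came from chromatin immunoprecipitation and sequencing (ChIP-seq) of wild-type hearts of the Black-Swiss strain, taken at stage E12.5. It combined 2 replicate pulldowns with an antibody against HIF1α, and both were called against 1 input library made without antibody. Nothing in the labels says how many embryos were pooled or whether the replicates were separate dissections. The list gives binding sites and no expression, so heart markers could not be checked in it.

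HIF1α is the oxygen-sensitive subunit of a heterodimer with ARNT. The dimer binds DNA at a short core sequence, usually written ACGTG or GCGTG, and turns on genes that help cells cope with low oxygen. Genes that bring glucose into the cell and commit it to glycolysis are among its long-known targets. Glucose enters through membrane carriers of the SLC2A (GLUT) family. Hexokinases then phosphorylate it, which traps it in the cell, and glucose phosphate isomerase turns glucose 6-phosphate into fructose 6-phosphate. In the heart, GLUT1 and hexokinase 1 are typical of fetal life, and GLUT4 and hexokinase 2 of the adult, insulin-responsive muscle.

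Each peak has a position on the mm10 build, a whole-number score given by the authors, and a number of merged calls. A peak of 2 calls joins overlapping calls, and a peak of 1 call has no partner. The list does not say whether the calls of such a pair came from different pulldowns, so 2 calls are not shown to be agreement between the replicates. The scores have no stated reference and no value per pulldown, and the read depth is unknown, so replicate errors and tests between samples were not possible. Scores were used only to describe and rank peaks within the list, where they run from 2 to 3315.

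Of the 7 peaks with scores of 9 or more, 4 have their sequence, whole or in part, in the RefSeq promoter table for GRCm38.p6, the same build. Each promoter window there runs from 250 bases before a transcription start to 50 bases after it. These stretches are shown because they are what could be read of the higher-scoring sites at these genes. For Hk1, 73 of the 93 readable bases are shown. They run 5′ to 3′ on the strand of the start they belong to, and capitals mark ACGTG or its reverse complement CACGT.
Gpi1, whole peak, chr7:34234172-34234285, plus strand: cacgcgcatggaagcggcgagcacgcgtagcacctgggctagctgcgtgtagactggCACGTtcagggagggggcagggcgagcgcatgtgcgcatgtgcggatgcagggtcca
Hk1, part of the peak, chr10:62340392-62340464, minus strand: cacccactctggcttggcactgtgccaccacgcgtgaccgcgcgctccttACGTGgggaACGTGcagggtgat
Hk2, part of the peak, chr6:82774655-82774704, minus strand: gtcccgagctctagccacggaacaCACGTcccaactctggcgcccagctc
Slc2a1, part of the peak 35.7 kb upstream, chr4:119073019-119073113, plus strand: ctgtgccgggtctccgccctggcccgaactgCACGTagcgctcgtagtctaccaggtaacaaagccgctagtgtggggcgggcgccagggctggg

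All 7 genes had a peak under the 50 kb rule, but so did 64.8% of protein-coding genes, so this count by itself does not set them apart. Peaks of 2 calls were present for 6 of the 7 genes, all but Hk3, against a background of 21.4%. Inside the gene or within 5 kb of it, 5 genes had a peak of any kind (background 32.7%), and the same 5, namely Slc2a1, Slc2a3, Hk1, Hk2 and Gpi1, had one of 2 calls (background 9.04%). For Slc2a3 and Hk1 that peak counted only because it lay inside the gene span, at 33.4 and 39.5 kb from the nearest end. A peak with a score of 10 or more lay within 50 kb of Slc2a1, Hk2 and Gpi1 (3 of 7, background 2.61%) and within 5 kb of the same 3 genes (background 0.946%). The score of 10 was chosen after the values were seen, and Hk1 falls just below it with 9. The median of the 7 highest scores was 9, against 2 over all protein-coding genes.

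Of the 18 peaks, 12 were of 2 calls (66.7%), against 11.5% of the whole list. The median score of those 12 was 9, and that of all 1989 peaks of 2 calls was 4. The 7 windows together cover 1.01 Mb and held 17.8 peaks per Mb, of which 11.8 per Mb were of 2 calls. Over the windows of all protein-coding genes the densities were 8.55 and 1.78 per Mb. Windows were 106 to 211 kb long, because they grow with the gene.

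**Figure D1:**
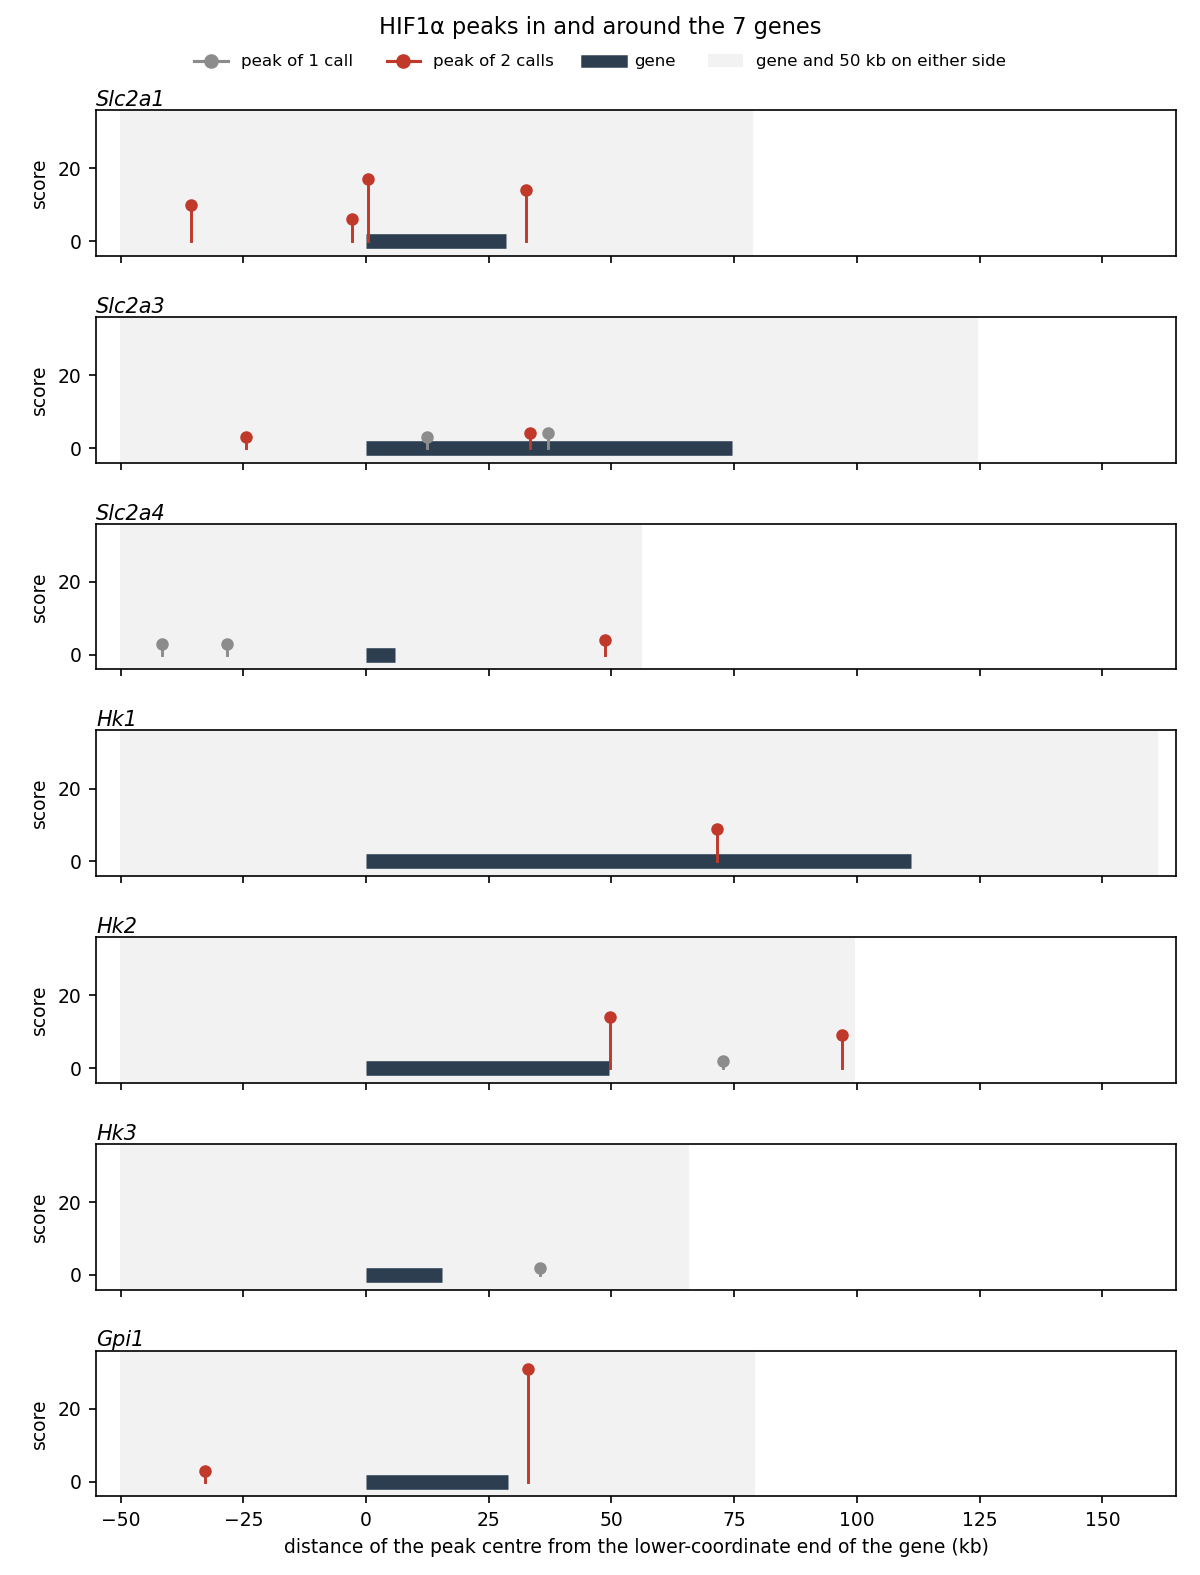
Peaks in and around each gene. The x axis is the distance of the peak centre from the lower-coordinate end of the gene in kb, and the y axis is the authors' peak score. Red marks peaks of 2 calls and grey peaks of 1 call, dark bars are the genes and the shaded area is the gene with 50 kb on either side. Scores of 10 or more stand at Slc2a1, Hk2 and Gpi1, Hk1 has a single peak of score 9, and Slc2a3, Slc2a4 and Hk3 have scores of 4 or less.

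The transporter genes differed in their peaks. Slc2a1 encodes GLUT1, the carrier for basal glucose uptake, and lies on the plus strand (gene ID 20525, chr4:119108745-119137330). It had 4 peaks, all of 2 calls and all with Slc2a1 as the nearest protein-coding gene. Only 0.0964% of protein-coding genes had 4 or more peaks of 2 calls in their window. The strongest, with a score of 17, had its centre inside the gene, 362 bp downstream of the start (chr4:119109049-119109165). A peak of score 6 lay 2.81 kb upstream of the start (chr4:119105886-119105991), inside the lncRNA gene Gm52706. That gene reads away from Slc2a1 and its start overlaps the Slc2a1 start. A peak of score 14 lay 3.98 kb beyond the 3′ end of the gene (chr4:119141250-119141375). The fourth, with a score of 10, lay 35.7 kb upstream (chr4:119072965-119073113), 38 bp inside the lower end of another lncRNA gene, Gm35510, and 230 bp upstream of the start that the promoter table gives for it. The peaks of Slc2a1 therefore lay on both sides of the gene as well as at its start.

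The 50 kb limit left out a stronger peak. A peak of 2 calls at 89.1 kb upstream of Slc2a1 scored 52 (chr4:119019550-119019653), and its nearest protein-coding gene was Lao1, 50691.5 bp away. The peaks nearest inside the limit, over all 7 genes, were one of score 9 at 47.5 kb from Hk2 and one of score 4 at 42.8 kb from Slc2a4. The other 3 peaks between 50 and 100 kb were of 1 call, with scores of 3 or 4, near Slc2a4, Hk2 and Gpi1.

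Slc2a3 encodes GLUT3, a carrier with high affinity for glucose that is best known from neurons and placenta (gene ID 20527, chr6:122727809-122802363). It also had 4 peaks, but all were weak. The 3 peaks inside the gene scored 3 (1 call, chr6:122740089-122740189), 4 (2 calls, chr6:122761161-122761268) and 4 (1 call, chr6:122764761-122764861). They lay 12.3, 33.4 and 37.0 kb from the nearest end of the gene, so none was at an end. The fourth, of 2 calls and score 3 (chr6:122703308-122703420), was outside the gene by 24.4 kb and lay 4125 bp from Nanog, a gene of pluripotent cells, which was its nearest protein-coding gene. The RefSeq span of Slc2a3 joins 1 curated and 5 predicted transcripts, and their separate starts were not used here.

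Slc2a4 encodes GLUT4, the carrier that insulin moves to the surface of muscle and fat cells (gene ID 20528, chr11:69942286-69948216). It had no peak inside it, and the nearest was 28.3 kb away. All 3 peaks of its window lay at other protein-coding genes, of which the window holds 11. They scored 3 at 18 bp from the 5′ end of Gps2 (1 call, chr11:69913948-69914048) and 3 at 232 bp from the 5′ end of 2810408A11Rik (1 call, chr11:69900757-69900857). The third scored 4, at 312.5 bp from the start of the autophagy gene Gabarap (2 calls, chr11:69990997-69991118). The count of 3 peaks for Slc2a4 thus rests wholly on its neighbours.

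By highest score the order of the transporters was Slc2a1 (17), then Slc2a3 and Slc2a4 (4 each). Their counts of peaks of 2 calls were 4, 2 and 1. A highest score of 17 or more was found for 1.02% of protein-coding genes, and one of 4 or more for 26.5%.

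The hexokinase genes differed as well. Hk2 encodes the hexokinase typical of striated muscle (gene ID 15277, chr6:82725025-82774454) and lies on the minus strand. Its strongest peak, of 2 calls and score 14, was 258.5 bp upstream of the start (chr6:82774655-82774770). Further upstream lay a peak of 1 call and score 2 at 23.4 kb (chr6:82797785-82797885) and a peak of 2 calls and score 9 at 47.5 kb (chr6:82821856-82821978). Hk2 was the nearest protein-coding gene to all 3, and its window holds no other protein-coding gene. All 3 lay upstream and none in the 49.4 kb of the gene.

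Hk1 encodes the hexokinase found in most cells (gene ID 15275, chr10:62268855-62379920, minus strand). It had a single peak in a window of 211 kb, of 2 calls and score 9 (chr10:62340353-62340464). By gene ends alone this peak seems remote, at 39.5 kb from the nearest end. The promoter table gives 2 starts for Hk1, however, at positions 62379908 and 62340421, and the peak spans the internal one, reaching from 43 bp upstream to 68 bp downstream of it. No peak lay at the outer start. The lncRNA gene Hk1os, on the plus strand, begins at 62340234, and the peak centre was 174.5 bp inside it.

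Hk3 encodes a hexokinase best known from white blood cells (gene ID 212032, chr13:55005985-55021475, minus strand). It had no peak inside it and no peak of 2 calls in its window. The only peak there, of 1 call and with the lowest score of the list, 2, was 19972 bp beyond the 5′ end, inside Uimc1 (chr13:55041397-55041497).

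By highest score the order of the hexokinases was Hk2 (14), Hk1 (9) and Hk3 (2). A highest score at least as large was found for 1.34%, 3.22% and 64.8% of protein-coding genes. Of the 5 genes with a start in the promoter table, Slc2a1, Hk1 and Hk2 had a peak of 2 calls within 500 bp of a start, against 5.22% of 17491 protein-coding genes in the table. Gpi1 and Hk3 had none.

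Gpi1, which has no isoform gene among the 7, encodes the single glucose phosphate isomerase of the pathway (gene ID 14751, chr7:34201327-34230336, minus strand). It had the strongest peak of the 18, with a score of 31 and 2 calls (chr7:34234172-34234285). Only 46 peaks of the whole list (0.266%) scored as high or higher, and 0.519% of protein-coding genes had such a peak in their window. The peak was not at the Gpi1 start but 3892.5 bp upstream of it. There it lay inside the lncRNA gene Gm12762, with its centre 94.5 bp from the start of that gene, and 148.5 bp upstream of the start of a second lncRNA gene, Gm12758. These genes read away from each other, and their starts are 54 bp apart. The nearest protein-coding gene was Garre1, by an end 2478.5 bp away, so a rule that gives each peak to its nearest protein-coding gene would take it from Gpi1. The second peak in the Gpi1 window, of 2 calls and score 3, was 29.5 bp from the 5′ end of Uba2, a subunit gene of the SUMO-activating enzyme (chr7:34168484-34168637).

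**Figure D2:**
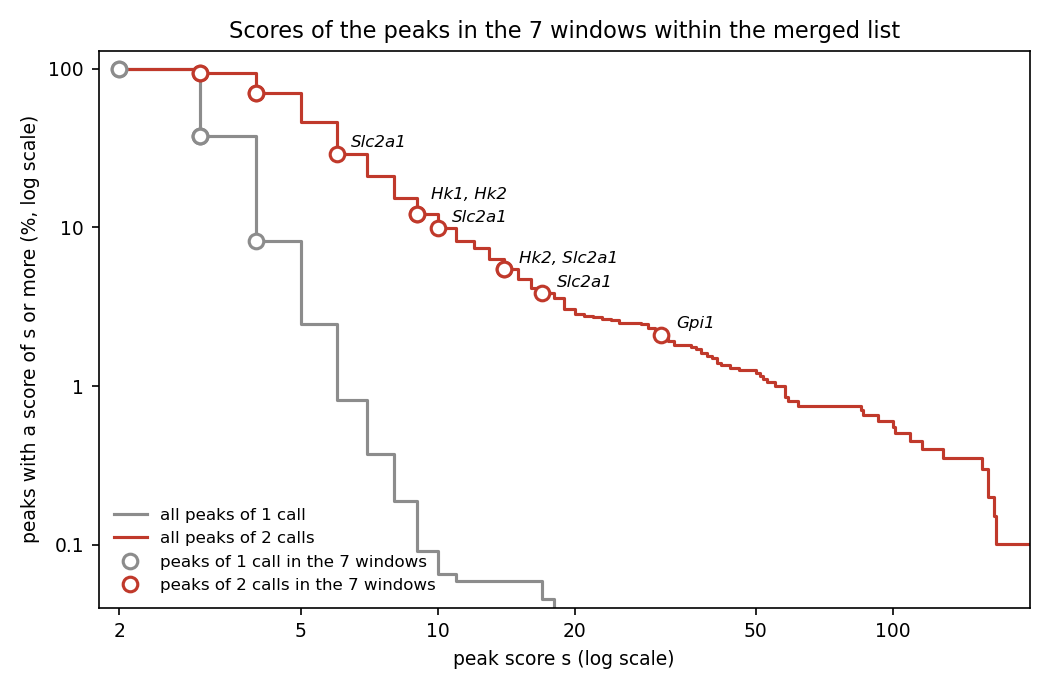
Scores of the 18 peaks within the merged list. The x axis is the peak score and the y axis the share of peaks with that score or a higher one, both on log scales, with lines for all 15300 peaks of 1 call (grey) and all 1989 peaks of 2 calls (red). Circles are the peaks of the 7 windows, and those of 2 calls with a score of 6 or more carry the gene's name. The Gpi1 peak, with a score of 31, lies within the top 2.11% of peaks of 2 calls.

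Some peaks of 2 calls in these windows lay at ends of lncRNA genes. Of the 12, 4 (33.3%) were within 500 bp of such an end, namely those at Gm35510, Gm52706 (the peak just downstream of the Slc2a1 start), Hk1os and Gm12762, against 8.80% of all peaks of 2 calls. These include the strongest peak of Slc2a1, of Hk1 and of Gpi1. By strand, all 4 ends were 5′ ends, whereas the share of 8.80% was not limited to 5′ ends. The closeness to lncRNA ends was noted after the values were seen, and for Slc2a1 and Hk1 the same peak is also near a start of the coding gene.

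The sequences shown above were searched for ACGTG and GCGTG, for the E-box CACGTG, which contains ACGTG, and for the GC box GGGCGG, on both strands. All 4 stretches held ACGTG, and none held CACGTG. In the Gpi1 peak the single match was centred 2.5 bp from the peak centre, and 3 matches to GCGTG lay within 54.5 bp of it. In the Hk1 peak 2 matches lay 3.5 and 5.5 bp from the centre, 9 bp apart in the same direction, just downstream of the internal start. The Hk1 peak also held 2 matches to GCGTG, 25.5 and 22.5 bp from its centre. The match in the Slc2a1 peak at Gm35510 was 13 bp from the centre. Of the Hk2 peak only 50 of 116 bases could be read, and the match lay 34.5 bp from its centre.

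Such a match is not common at the same place in other promoters. The stretch of each promoter window that corresponds to the bases read here held ACGTG in 7.24% of 32851 windows for the Gpi1 peak, 7.12% for Hk1, 5.73% for Slc2a1 and 2.93% for Hk2. Over whole windows of 300 bases the share was 19.6% for ACGTG, 32.4% for GCGTG, 7.15% for CACGTG and 35.7% for GGGCGG. The whole of 2 weaker peaks could also be read, those at Gps2 (score 3) and Uba2 (score 3), and neither held ACGTG or GCGTG. Among all 1767 peaks with at least 50 readable bases, ACGTG was present in 17.2% of 1104 peaks of 1 call, in 41.7% of 592 peaks of 2 calls that scored under 10, and in 73.2% of 71 peaks of 2 calls that scored at least 10. For GCGTG these shares were 28.5%, 41.4% and 35.2%, and for GGGCGG 35.7%, 47.3% and 40.8%, so neither was highest in the highest-scoring class. A match describes the letters and does not show that HIF1α binds there.

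**Figure D3:**
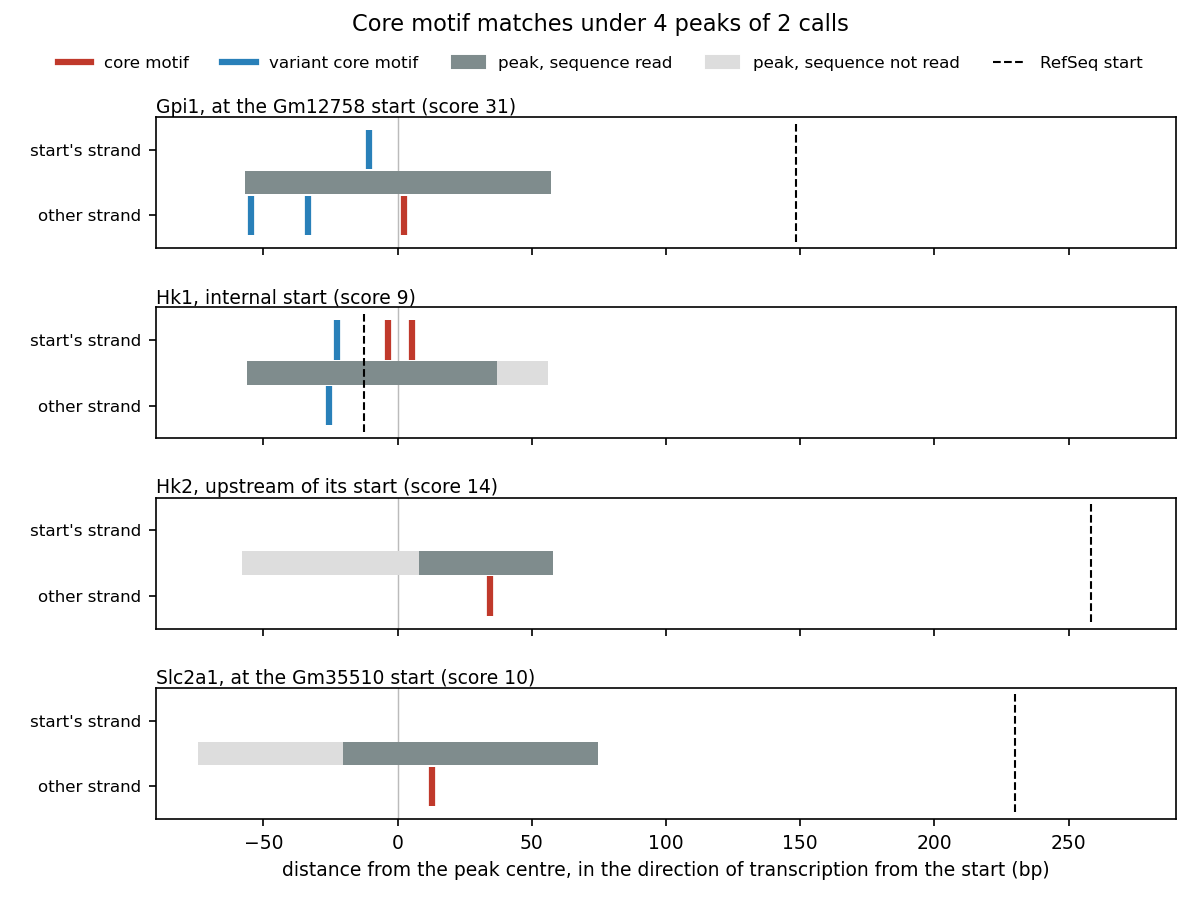
Core motif matches under the 4 readable peaks with scores of 9 or more. The x axis is the distance in bp from the peak centre, in the direction of transcription from the nearby start (dashed line), the bars are the peaks (dark where the sequence was read), red marks are ACGTG and blue marks are GCGTG, above the bar on the strand of the start and below it on the other. Matches to ACGTG lie 2.5 to 34.5 bp from the peak centres.

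Presence of the motif at a start did not go with a peak in every case. The window at the Slc2a1 start held ACGTG, beginning at position -36 from the start, while the nearest peak began beyond the window, at 304 bp from the start. The Hk2 window held a second match at -52, outside the peak. The Hk3 window held one at -156 and had no peak. The Gpi1 window and the window at the outer Hk1 start held neither ACGTG nor GCGTG. Slc2a3 and Slc2a4 were not examined for motifs here.

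Other genes of glucose handling were taken from 4 lists, and counted as near a peak when it lay inside the gene or within 5 kb. Of 11 other glucose and hexose transporter genes, 1 was near a peak, against 32.7% of all protein-coding genes. This was Slc2a13, a proton-coupled inositol carrier, with a peak of 1 call and score 2, and peaks of 2 calls were near none of the 11, against 9.04% of all protein-coding genes. Within 50 kb, 6 of the 11 had a peak (background 64.8%) and 1 had one of 2 calls (background 21.4%). The highest score there was 7, for Slc2a10, which is above Slc2a3 and Slc2a4 (4 each) and below Slc2a1 (17). Of 2 other genes that encode enzymes phosphorylating glucose, Adpgk, an ADP-dependent kinase, was near a peak of 1 call and score 2. Hkdc1, the neighbour of Hk1, had no peak of its own within 5 kb, and the only peak in its 50 kb window was the one counted for Hk1.

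All 13 genes of the next steps of glycolysis, from phosphofructokinase to lactate dehydrogenase, were near a peak, 12 of them near one of 2 calls, with a median highest score of 25. For the 7 genes that median, with 0 for a gene without a peak within 5 kb, was 9. The highest were Eno1 (109), Pgam1 (55), Gapdh (42) and Pkm (40), all of 2 calls. Gpi1, with 31, was above 9 of the 13. Slc2a3, with 4, matched Pfkm (4), and the lowest of the 13 was Eno3 (3). Of 9 genes of branches from glucose 6-phosphate and of uptake regulation, 6 were near a peak and 4 near one of 2 calls. Pgm1, a phosphoglucomutase (20), and Gys1, the muscle glycogen synthase (15), had the highest scores, followed by Pgm2 and the GLUT4 traffic regulator Tbc1d4 (5 each), all of 2 calls.

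**Figure D4:**
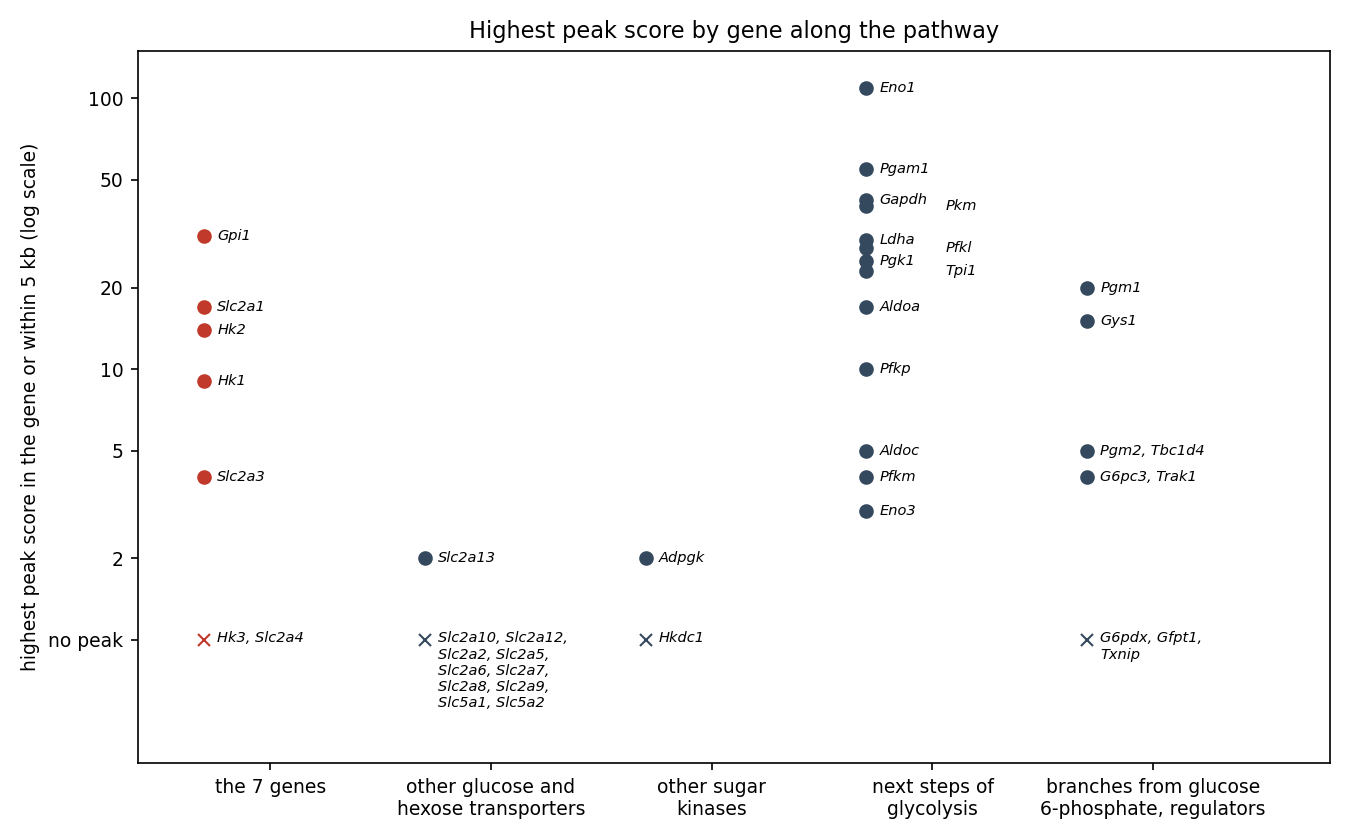
Highest peak score inside each gene or within 5 kb of it. The y axis is the authors' score on a log scale, with crosses for genes without a peak, and the columns are the 7 genes (red) and the 4 lists of related genes (dark). Slc2a4 and Hk3 have no peak, as do 10 of the 11 other transporter genes, whereas all 13 genes of the next steps of glycolysis have one.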

How the data were processed

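The data were a merged peak list from 2 HIF1α pulldowns and 1 input of mouse heart. The submitters' processing notes name Bowtie2, HOMER and the mm10 build, without versions. Peaks of each pulldown against the input were merged by the authors, per the file headers. The deposited score is a whole number whose reference is not given in the sources used here, and the threshold and merging rule are likewise not given. The last number of each peak name was read as merged calls. No column gives a value per pulldown, so replicates could not be compared, and depth is unknown. Both pulldowns share the input.

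Positions were counted from 1. Gene spans came from a RefSeq table of GRCm38.p6, the same build, leaving out entries that start below 3 Mb (except on Y), which belong to unplaced sequence. It gives no exons, so exonic, intronic and UTR positions are not told apart. Starts, strands and sequences came from the RefSeq promoter table, which matched 5 of the 7 genes with 6 windows and named neither Slc2a3 nor Slc2a4. At most 30 transcribed bases of a coding gene were printed. Named genes were the 7, the nearest coding gene of each peak, and up to 4 genes per list with the highest score within 5 kb. Lao1, Slc2a10, Pfkm, Eno3 and the lncRNA genes fell outside this rule and were named after their values were seen. Some listed genes are not reported here. The members and lists were chosen with earlier results of these data known. Counts were made in Python 3.11.15 with pandas 2.3.3 and tested on simulated peaks. Alternatives covered the window, overlap, score minimum, calls, joining of neighbouring peaks and nearest-gene assignment.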

Additional observations from a re-analysis of the deposited data

How the results depend on the processing

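The count of genes with a peak fell from 7 to 3 with the gene body alone (21.1% of all protein-coding genes) and to 4 when a peak counted only for its nearest protein-coding gene (34.1%), where Gpi1, Slc2a4 and Hk3 had none. The 18 peaks became 9 at 5 kb, 9 at 10 kb, 5 in gene bodies, 11 with scores of at least 4 and 11 by nearest gene. The 12 peaks of 2 calls became 7 at 5 kb, 7 at 10 kb and 3 in gene bodies. These settings count fewer peaks by construction. The median highest score of 9 became 14 at 5 kb, 11.5 with peaks of 2 calls alone and 11.5 by nearest gene, since genes without a peak leave the median. The median distance from the nearest peak centre to a gene end, 12330 bp, became 14168.8 bp with peaks of 2 calls alone and 8111.25 bp with scores of at least 3. The highest score of Slc2a1 rose from 17 to 52 at 100 kb. With peaks of 2 calls alone, the distance of the nearest peak rose from 12330 to 24445 bp for Slc2a3. For Slc2a4 it rose from 28288 to 42841.5 bp. The other 24 alternative values for counts, medians and orders moved by at most 1.5 times or, for distances, by less than the width of a peak. The order of isoforms held in both families by the sum of scores and by the number of peaks of 2 calls. Slc2a3 and Slc2a4 were tied by highest score, so no order of that pair could be broken. The sum of scores includes the highest score. With a score minimum of 9 or 15 in place of 10, both chosen after seeing the data, 4 and 2 genes passed, against 3.22% and 1.19% of all protein-coding genes. No paired analysis was possible because the list gives no value per pulldown, and leaving out a replicate could not be done for the same reason.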
